A study of Mus musculus with 2 samples.

Results

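The data described here are ATAC-seq peaks at the 8 genes that encode the core of Polycomb repressive complex 1 (PRC1), namely the Polycomb group RING finger (PCGF) genes Bmi1 (also called Pcgf4), Pcgf1, Pcgf2, Pcgf3, Pcgf5 and Pcgf6 and the RING genes Ring1 and Rnf2, out of 21938 protein-coding genes of the annotation. The 8 genes were chosen by family. A peak was assigned to a gene when its centre lay in the gene body, in the 10 kb upstream of it or within 3 kb of any of its annotated transcription start sites (TSS), and those that met the last of these criteria are called promoter peaks. These rules gave 25 of the 77596 peaks labelled WT and 32 of the 100431 peaks labelled Bmi1-/-. ATAC-seq maps open chromatin by the insertion of a transposase. The tissue was the organ of Corti (OC), the strip of hair cells and supporting cells of the cochlea, from neonatal (P2) mice with no treatment. One group was WT and the other carried a germline deletion of Bmi1 (strain FVB.129P2-Bmi1tm1Brn/MvlJ, crossed back to C57BL/6J, with littermates compared). Each genotype had 1 library, made from 10 pooled mice, so no difference between the lists could be tested against replicate error. All intervals below cover counting error only, and no p-value between genotypes is given.

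PRC1 places a single ubiquitin on histone H2A, a mark of repressed chromatin, and every form of the complex is built on a RING protein bound to a PCGF protein. Ring1 and Rnf2 (Ring1B) carry the ubiquitin ligase activity. The PCGF partner sets the kind of complex. Bmi1 and Pcgf2 (Mel18) enter canonical PRC1 together with PHC proteins and with CBX proteins, which read the H3K27me3 mark of PRC2, whereas Pcgf1, Pcgf3, Pcgf5 and Pcgf6 form variant complexes with Rybp or Yaf2. In stem and progenitor cells Bmi1 is known for holding cell cycle inhibitors of the Cdkn2a locus silent. The comparison of the lists therefore asks how open the genes for the partners and paralogs of Bmi1 were in the OC of mice that lack Bmi1.

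The direction of every difference below rests on GEO's labels. Inside the list labelled WT every peak name began with bko, and inside the list labelled Bmi1-/- every peak name began with bwt, whereas the names of the deposited files carry the same genotypes as the labels. The targeted gene could not settle this, since both lists had peaks at Bmi1 and the deleted part of the allele is not given in the sources used here. The commonest background under the peaks was 6.32 reads for WT and 8.04 reads for Bmi1-/- (1.27 times as many). The cause of the higher background in the second library, such as a greater depth, was not tested. A q-value of 0.05 (−log10 q of 1.3) was reached by 52.4% and 62.9% of all peaks, respectively. As a look at the tissue, all 10 hair cell, all 10 supporting cell and both epithelial markers examined had a promoter peak in at least 1 list. So did 4 of 5 neuronal, 2 of 4 glial, 5 of 5 mesenchymal, 4 of 4 endothelial and 2 of 5 blood and macrophage markers. Most genes had one, namely 16298 of the 21938 protein-coding genes. A promoter peak in both lists was found for 6 of 10 hair cell, 9 of 10 supporting cell, 2 of 2 epithelial and 1 of 5 neuronal markers. The counts were 1 of 4 for glial, 1 of 5 for mesenchymal, 2 of 4 for endothelial and 0 of 5 for blood and macrophage markers. Over all protein-coding genes the share was 53.0%, and that of the hair cell markers was near it. Elavl4, Sox10, Ptprc, Gata1 and Hbb-bs had none in either list. Fewer cells of a type and less open chromatin per cell cannot be told apart in such pooled tissue, and the part of cell composition in the results below was not tested.

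The DNA in question is shown for 5 promoter windows that separate the genes by how the peaks fell on them. Each window runs from 250 bases before to 50 bases after a RefSeq TSS (GRCm38.p6) and is printed in the direction of transcription, with capitals marking matches to the motifs named further below. The Rnf2 window at chr1:151500942-151501241 (minus strand) lay under a peak in both lists, over 300 bases for WT and 222 bases for Bmi1-/-. The internal Pcgf5 window at chr19:36409498-36409797 (plus strand) was also covered in both, over 300 and 223 bases. The Ring1 window at chr17:34024631-34024930 (minus strand) was covered over its whole length in the list labelled Bmi1-/- alone. In the Bmi1 window at chr2:18676768-18677067 (plus strand), 153 bases were covered by peaks labelled Bmi1-/- and 0 by peaks labelled WT. The Pcgf2 window at chr11:97699599-97699898 (minus strand) had no peak in either list.
Rnf2: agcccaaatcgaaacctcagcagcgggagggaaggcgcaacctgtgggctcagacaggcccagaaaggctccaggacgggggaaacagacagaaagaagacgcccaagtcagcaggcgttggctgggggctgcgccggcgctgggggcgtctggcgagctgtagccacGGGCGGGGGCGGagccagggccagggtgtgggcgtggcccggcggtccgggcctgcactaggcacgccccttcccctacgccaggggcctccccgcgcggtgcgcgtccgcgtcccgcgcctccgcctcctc
Pcgf5 (internal): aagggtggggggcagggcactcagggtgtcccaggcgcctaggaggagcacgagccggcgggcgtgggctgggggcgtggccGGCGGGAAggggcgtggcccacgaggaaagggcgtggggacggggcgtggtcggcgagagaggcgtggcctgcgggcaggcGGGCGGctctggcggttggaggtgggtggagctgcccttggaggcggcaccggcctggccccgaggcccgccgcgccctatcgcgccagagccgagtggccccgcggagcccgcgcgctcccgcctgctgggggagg
Ring1: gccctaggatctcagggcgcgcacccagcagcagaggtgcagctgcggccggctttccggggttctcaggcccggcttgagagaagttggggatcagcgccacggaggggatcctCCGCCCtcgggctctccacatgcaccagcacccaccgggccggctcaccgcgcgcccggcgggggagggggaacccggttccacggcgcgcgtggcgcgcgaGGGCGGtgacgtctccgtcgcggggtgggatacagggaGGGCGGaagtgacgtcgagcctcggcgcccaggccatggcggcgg
Bmi1: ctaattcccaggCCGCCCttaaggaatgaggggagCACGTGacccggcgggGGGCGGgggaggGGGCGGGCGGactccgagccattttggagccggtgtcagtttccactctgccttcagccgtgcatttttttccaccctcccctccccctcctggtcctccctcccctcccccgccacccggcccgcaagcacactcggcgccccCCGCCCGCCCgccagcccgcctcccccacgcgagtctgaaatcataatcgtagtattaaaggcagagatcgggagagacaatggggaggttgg
Pcgf2: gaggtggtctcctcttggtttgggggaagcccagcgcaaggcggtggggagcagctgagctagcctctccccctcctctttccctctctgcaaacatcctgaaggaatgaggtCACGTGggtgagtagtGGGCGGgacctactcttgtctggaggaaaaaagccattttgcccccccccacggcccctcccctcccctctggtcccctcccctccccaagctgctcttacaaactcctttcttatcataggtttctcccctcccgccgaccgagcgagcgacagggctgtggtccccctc

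Of the 9 such windows that belong to 7 of the genes, 3 were overlapped by a peak of the list labelled WT and 6 by a peak of the list labelled Bmi1-/-, against 23.3% and 33.2% of 32851 RefSeq promoter windows. Those with a WT peak were the Rnf2 window and 2 windows of Pcgf5, and the same 3 also had a peak labelled Bmi1-/-. The windows of Bmi1, Pcgf3 and Ring1 had a peak in the list labelled Bmi1-/- alone. The windows of Pcgf2, Pcgf6 and the remaining Pcgf5 start were free of peaks in both lists.

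Over the gene regions, which summed to 327 kb, the list labelled Bmi1-/- held more and wider peaks, as it did at large. The regions of all protein-coding genes held 51159 peaks labelled WT and 64488 labelled Bmi1-/-. Median widths were 268 and 286 bp for the member peaks, beside 260 and 277 bp for all peaks. The 25 peaks labelled WT covered 8594 bp with a mean width of 344 bp, and the 32 peaks labelled Bmi1-/- covered 13285 bp with a mean width of 415 bp. Among the few member peaks the surplus lay near the TSS, with 14 promoter peaks labelled WT and 22 labelled Bmi1-/-. The remaining peaks numbered 11 and 10. Over the regions of all protein-coding genes both kinds were more numerous in the list labelled Bmi1-/-. There, promoter peaks numbered 20609 labelled WT and 25830 labelled Bmi1-/-, and other region peaks 30550 and 38658. Of the 25 member peaks labelled WT, 14 (56%) reached a −log10 q of 1.3, against a background of 53.5% over all those gene regions. In the list labelled Bmi1-/-, 23 (71.9%) did so, against 64.6%. Each list had 5 peaks in these regions whose nearest protein-coding TSS belonged to a neighbour, namely Commd3 next to Bmi1, Tlx2 next to Pcgf1, Psmb3 next to Pcgf2 and H2-Ke6 next to Ring1. Bmi1 differed most, with 2 peaks labelled WT and 5 labelled Bmi1-/-, followed by Ring1 (2 and 4), Pcgf3 (4 and 6) and Pcgf1 (2 and 3). Pcgf2 went the other way (3 and 2), and Rnf2, Pcgf5 and Pcgf6 had equal numbers in both lists.

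**Figure D1:**
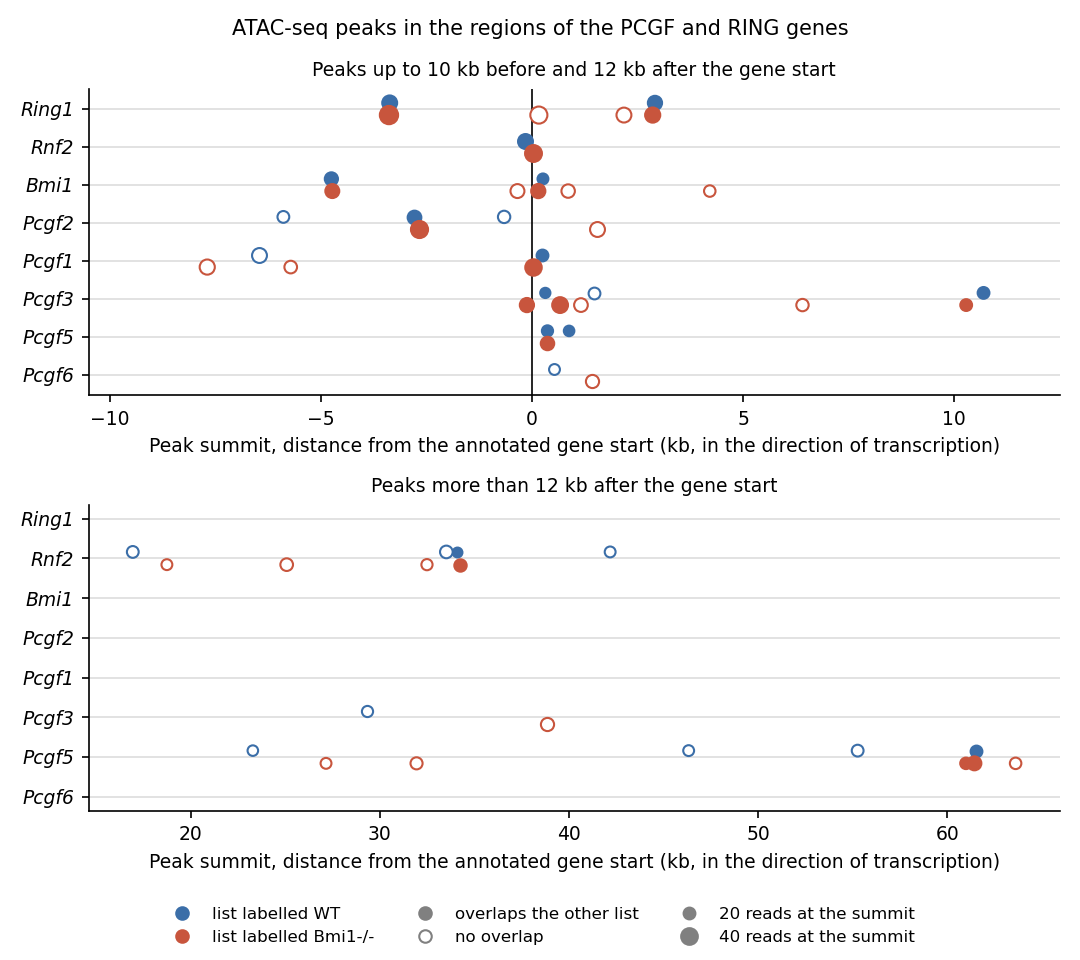
Position of each peak summit (kb from the annotated gene start, in the direction of transcription) for the 8 genes, with 25 peaks labelled WT in blue and 32 peaks labelled Bmi1-/- in red. Filled points overlap a peak of the other list by at least 1 bp, open points do not, and the area of a point is proportional to the reads at its summit. Most filled points are promoter peaks, whereas open points are found both among promoter peaks and away from annotated starts.

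Part of each set recurred in the other list. Of the peaks labelled WT, 13 of 25 (52%, exact binomial 95% interval 31.3 to 72.2%) overlapped a peak of the other list by at least 1 bp, against a background of 28.9% over all gene regions. Of the peaks labelled Bmi1-/-, 14 of 32 (43.8%, interval 26.4 to 62.3%) did so, against 21.9%. Recurrence was mainly a feature of promoter peaks. Of the promoter peaks, 10 of 14 labelled WT (71.4%) and 11 of 22 labelled Bmi1-/- (50%) overlapped, whereas 3 of 11 and 3 of 10 of the other peaks did (27.3% and 30%). Over all genes the same shares were 48.8% and 36.6% for promoter peaks and 15.4% and 12.1% for other region peaks, so each of the 4 member shares was the higher, on few peaks. When at least 50% of each of the overlapping peaks had to be shared, the member shares fell to 24% and 18.8%. No all-gene share is given for that setting, and the backgrounds above hold only for an overlap of 1 bp.

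All 8 genes had a promoter peak in both lists. Over all protein-coding genes 59.1% had one among the WT peaks, 68.2% among the Bmi1-/- peaks and 53.0% in both lists, with 15.2% having one only labelled Bmi1-/- and 6.10% only labelled WT. With only peaks of −log10 q of at least 1.3 counted, 5 genes kept a promoter peak labelled WT and all 8 kept one labelled Bmi1-/-. No all-gene count at that threshold is given. Fewer peaks labelled WT reached it at large, namely 53.5% of them over the regions of all protein-coding genes against 64.6% labelled Bmi1-/-.

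Rnf2, the RING ligase that supplies most of the activity in many tissues, had the strongest promoter peak of the 8 genes in both lists. Its WT peak (chr1:151500378-151501286) had 32 reads at the summit (exact Poisson 95% interval 21.9 to 45.2) over a local background of 6.88, and with a −log10 q of 7.73 it stood at the 99.4th percentile of its list by −log10 p. Its Bmi1-/- peak (chr1:151500382-151501163) had 41 reads (29.4 to 55.6) over 9.14 and stood at the 99.1st percentile, its −log10 q being 10.4. Both lay across the 5′ end of Rnf2, their centres 1 and 21 bp from the nearest of its 7 annotated TSSs. The predicted gene Gm36527 began within 3 kb. Scaled by the commonest background of each library, the ratio of the summit pileups (Bmi1-/- over WT) was 1.01 (95% interval 0.619 to 1.65). The Rnf2 promoter was thus among the strongest sites of both lists, with a ratio close to 1 in its pileup. The other Rnf2 peaks, 4 in each list, lay in introns, and only 1 pair of them overlapped, by 27 bp.

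Ring1, the second RING ligase gene, differed in where its peaks lay. At its 5′ TSS only the list labelled Bmi1-/- had a peak (chr17:34024387-34024945, 559 bp wide), with 42 reads at the summit (30.3 to 56.8) over a high local background of 19.1, at the 82.2nd percentile. The strongest promoter peak labelled WT lay within a coding exon, 2146 bp from the nearest Ring1 TSS (chr17:34021663-34021909), with 29 reads (19.4 to 41.6) over 10.5, at the 89.6th percentile. The list labelled Bmi1-/- had a peak at that exon too (chr17:34021663-34021978), with 33 reads at the 72.1st percentile, and the scaled ratio there was 0.894 (0.527 to 1.53). By strongest promoter peak the difference for Ring1 (Bmi1-/- minus WT) was -7.47 percentile points, but this compares an exon in one list with a TSS in the other. A further coding exon peak, chr17:34022413-34022622, was found in the list labelled Bmi1-/- alone, with 32 reads at the 50th percentile. Within 3 kb of the Ring1 promoter peaks lay the starts of H2-Ke6, Gm26940, Mir219a-1 and Mir219c. The H2-Ke6 TSS had a peak in both lists, with 32 reads labelled WT and 48 labelled Bmi1-/- and a scaled ratio of 1.18 (0.738 to 1.91).

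Bmi1 itself, the gene targeted in the mutant and a canonical PCGF subunit, had more and stronger promoter peaks in the list labelled Bmi1-/-. The only Bmi1 promoter peak labelled WT (chr2:18677082-18677406) lay in the 5′ untranslated exon and had 17 reads at the summit (9.9 to 27.2) over a background of 6.32, its percentile being 40.1 and its −log10 q 1.15. At the same place the list labelled Bmi1-/- had a peak of 556 bp (chr2:18677013-18677568) with 29 reads (19.4 to 41.6) over 9.58, its percentile being 92 and its −log10 q 3.6. Despite a rank 51.9 points higher, the scaled pileup ratio was 1.34 with an interval (0.713 to 2.6) that included 1. Of the peaks found only in the list labelled Bmi1-/-, 1 lay just upstream (chr2:18676267-18676865, 28 reads, 85.8th percentile), 1 in an intron (chr2:18677766-18678031, 26 reads, 90.1st percentile) and 1 further into the gene (chr2:18681150-18681366, 19 reads, 29.2nd percentile, −log10 q of 1.08). Open chromatin was therefore recorded across the start and in the body of Bmi1 in the library labelled Bmi1-/-. The next gene upstream, Commd3, had a peak at its TSS in both lists, with 25 reads labelled WT at the 97.5th percentile and 28 reads labelled Bmi1-/- at the 94.3rd, and its scaled ratio was 0.88 (0.495 to 1.57). In the list labelled WT the Commd3 start was thus the stronger of the 2 sites, and in the list labelled Bmi1-/- their percentiles were close.

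Pcgf2, the canonical paralog of Bmi1, had no clear peak of its own. Its strongest promoter peak in both lists sat at the start of Psmb3, a proteasome subunit gene that begins within 3 kb of a Pcgf2 TSS, with peak centres 1 bp (WT) and 147 bp (Bmi1-/-) from the Psmb3 TSS. The peak labelled WT (chr11:97703161-97703705) had 27 reads (17.8 to 39.3) at the 78.3rd percentile, and that labelled Bmi1-/- (chr11:97703051-97703453) had 42 reads (30.3 to 56.8) over a local background of 16.1 at the 94th percentile. Their scaled ratio was 1.22 (0.736 to 2.06) and became 0.992 against the local background. The peaks nearest to a TSS of Pcgf2 itself were weak and lay apart, with 22 reads at the 27.3rd percentile in the list labelled WT (chr11:97701024-97701223, upstream) and 32 reads over a background of 18.2 at the 9.57th percentile in the list labelled Bmi1-/- (chr11:97698876-97699075, intronic). Neither of these reached a −log10 q of 1.3. Counted by those peaks, the difference for Pcgf2 (Bmi1-/- minus WT) was -17.8 percentile points, in place of 15.6 points at the Psmb3 start.

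Pcgf1, the PCGF subunit of the variant complex that Kdm2b brings to CpG islands, had the widest rank difference of the 8 genes. Its WT promoter peak (chr6:83078008-83078284) was 277 bp wide with 20 reads (12.2 to 30.9) over 8.52, its percentile being 29.8 and its −log10 q 1.03. The Bmi1-/- peak that contained it (chr6:83077711-83078945) was 1235 bp wide with 39 reads (27.7 to 53.3) over 10.2, its percentile being 98.3 and its −log10 q 7.82. The difference was 68.5 percentile points, and the scaled pileup ratio was 1.53 (0.873 to 2.77). The centre of the Bmi1-/- peak lay 18 bp from a Pcgf1 TSS and that of the WT peak 200 bp, and the only other start within 3 kb was that of the predicted gene Gm37092. The strongest WT peak of the Pcgf1 region, with 32 reads at the 98.9th percentile, lay instead near Tlx2, a homeobox gene, and did not overlap either of the 2 Tlx2 peaks labelled Bmi1-/-.

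Pcgf3 and Pcgf5 are close paralogs whose variant complexes hold Auts2 or its relatives. At the 5′ end of Pcgf3 the list labelled WT had a weak peak (chr5:108461353-108461562, 15 reads, 4.25th percentile), while the list labelled Bmi1-/- had a peak on each side of it, upstream across the TSS (chr5:108460894-108461385, 29 reads, 87.3rd percentile) and in an intron (chr5:108461541-108462063, 36 reads, 96.8th percentile). The 2 Bmi1-/- peaks touched the WT peak by 33 and 22 bp, and their summits were 436 and 350 bp from its summit. A further WT peak lay 1396 bp from the nearest Pcgf3 TSS (chr5:108462573-108462844), with 20 reads at the 66.4th percentile and a −log10 q of 1.72, and it overlapped no peak of the other list. The scaled ratio of the intronic peak to the weak WT peak of 15 reads that it touched was 1.89 (1.01 to 3.71). It was the only one of 15 pairs of overlapping peaks in these regions whose interval excluded 1, and the interval included 1 when scaled by peaks shared at all promoters (1.8, 0.961 to 3.54) or by the local background (1.51, 0.806 to 2.97). The strongest promoter peak of Pcgf3 labelled WT was elsewhere, at an internal start (chr5:108471625-108472115, 20 reads, 81st percentile), where the overlapping peak labelled Bmi1-/- had 20 reads at the 24.5th percentile and a scaled ratio of 0.786 (0.401 to 1.54). Pcgf3 was thus 15.8 percentile points higher by strongest peak and 92.5 points higher when promoters were cut to 1 kb, which drops that internal peak and the peak 1396 bp from the TSS.

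Pcgf5 was open at 2 alternative starts in both lists. At the 5′ start, 2 WT peaks (chr19:36348330-36349004 and chr19:36349095-36349314, 18 and 16 reads) overlapped a single Bmi1-/- peak of 1277 bp (chr19:36348033-36349309, 26 reads), over 675 and 215 bp. The percentiles of the main peaks there were 56.8 and 87.6, and the scaled ratio was 1.14 (0.599 to 2.2). The antisense transcript Gm47735 begins at this site, so the peaks cannot be given to Pcgf5 alone. At the internal start the WT peak (chr19:36409439-36410170, 732 bp) had 20 reads (12.2 to 30.9) at the 81st percentile, and the Bmi1-/- peak (chr19:36409575-36409917, 343 bp) had 28 reads (18.6 to 40.5) at the 94.7th, with a scaled ratio of 1.1 (0.598 to 2.06). The internal start was the stronger by rank in both lists. The intronic peaks outside these starts did not recur between the lists, apart from 1 Bmi1-/- peak that touched the WT peak at the internal start by 14 bp.

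Pcgf6, whose complex is guided by Mga, Max and E2f6, had a single peak in each list and no shared site. The WT peak (chr19:47050334-47050764) lay 341 bp inside the nearest TSS with 17 reads (9.9 to 27.2), its percentile being 33.3 and its −log10 q 1.15. The Bmi1-/- peak (chr19:47049292-47049600) lay about 1 kb further into the gene, 41 bp from an internal start, with 25 reads (16.2 to 36.9), its percentile being 86.1 and its −log10 q 2.82. The rank difference of 52.8 points therefore compares different places, and the scaled ratio of 1.16 (0.6 to 2.28) included 1.

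**Figure D2:**
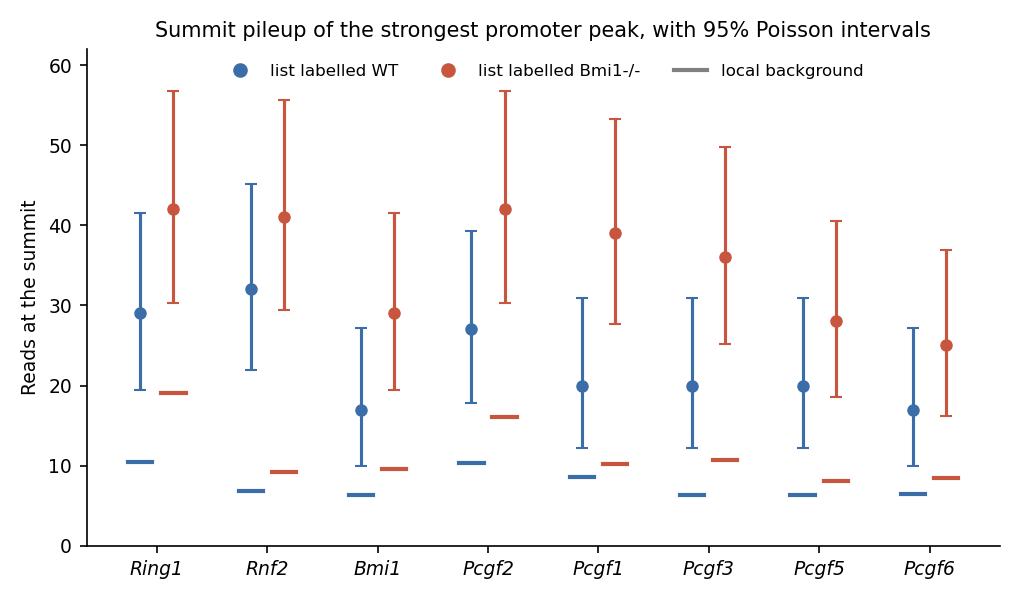
Reads at the summit of the strongest promoter peak of each gene in the list labelled WT (blue) and the list labelled Bmi1-/- (red), with exact Poisson 95% intervals as error bars and the local background as short horizontal lines. The counts run from 17 to 32 labelled WT and from 25 to 42 labelled Bmi1-/-, the background is higher in the list labelled Bmi1-/- for each gene, and the paired intervals overlap.

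Ordered by strongest promoter peak, the list labelled WT ran from Rnf2 (99.4th percentile) through Ring1, Pcgf3, Pcgf5, Pcgf2, Bmi1 and Pcgf6 to Pcgf1 (29.8th). The list labelled Bmi1-/- ran from Rnf2 (99.1st) through Pcgf1, Pcgf3, Pcgf5, Pcgf2, Bmi1 and Pcgf6 to Ring1 (82.2nd). The main change of order was that Pcgf1 moved from last to second and Ring1 from second to last. With summit counts as low as these, the Poisson intervals of genes next to each other in either order overlapped. In all, 6 of 8 genes (75%, exact binomial 95% interval 34.9 to 96.8%) ranked higher in the list labelled Bmi1-/-, against a background of 68.6% of the 16298 genes that had such a peak at all, a share near that background. The median difference was 15.7 points over the 8 genes and 5.29 points over the 11618 genes with a promoter peak in both lists, whose quartiles were -2.27 and 25.6 points. Bmi1, Pcgf1 and Pcgf6 lay above that range, Ring1 below it and the others within it. The 3 genes above it were also the 3 with the weakest WT peaks. The median percentile of the 8 genes was 79.7 labelled WT and 94.3 labelled Bmi1-/-, beside 78.5 and 90.8 for all those genes. In 5 of the 8 genes the strongest promoter peaks of the lists overlapped, and in Pcgf3, Pcgf6 and Ring1 they did not.

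**Figure D3:**
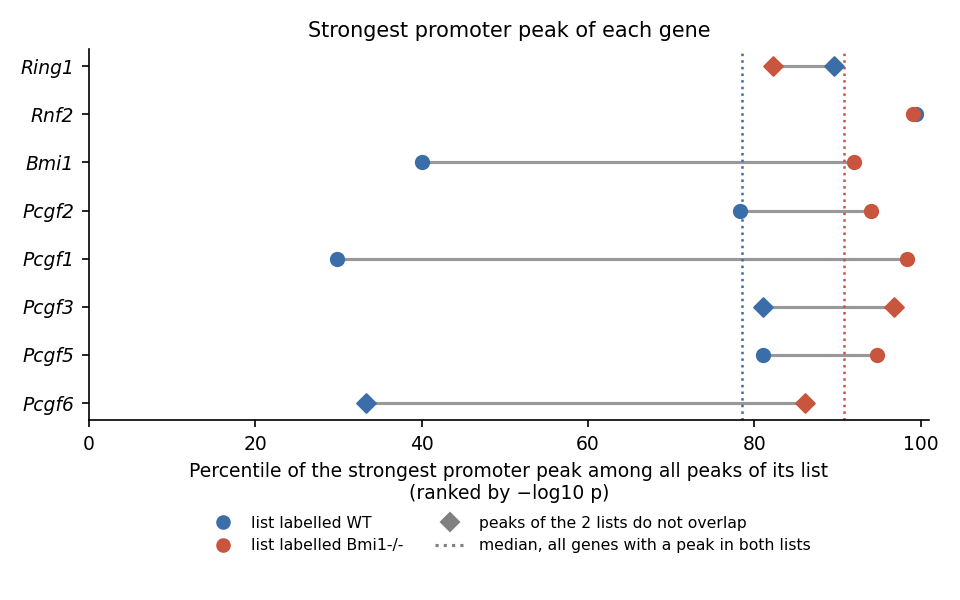
Percentile of the strongest promoter peak of each gene among all peaks of its own list, ranked by −log10 p, in the list labelled WT (blue) and the list labelled Bmi1-/- (red). Diamonds mark genes whose strongest peaks in the lists do not overlap, and dotted lines mark the medians over all genes with a promoter peak in both lists, at 78.5 and 90.8. Rnf2 lies near 99 in both, and Bmi1, Pcgf1 and Pcgf6 have the longest lines.

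The other genes of the Polycomb system were described in the same way, from a list of 47 of which 46 were found in the annotation. A promoter peak was present in both lists for 41, only in the list labelled Bmi1-/- for Cbx2, Bcorl1 and E2f6, only in the list labelled WT for Phc1, and in neither for Scml2. Of the 45 with such a peak, 33 (73.3%) stood higher among the peaks labelled Bmi1-/-, also close to the background of 68.6%. The partners of Bmi1 and Pcgf2 in canonical PRC1 had a median difference of 32 points over the 7 with promoter peaks in both lists, of which 6 were higher in the list labelled Bmi1-/-. Those of variant PRC1 had a median of 3.75 points with 12 of 17 higher, the subunits of PRC2 a median of 3.12 points with 7 of 11 higher, and the deubiquitinases that remove the PRC1 mark a median of 5.07 points with 5 of 5 higher. The widest positive differences belonged to Bcor, a partner of Pcgf1 (19.2nd to 92.3rd percentile, 73 points), Mtf2, a PRC2 accessory subunit (57.8 points), and Cbx6, a chromodomain subunit of canonical PRC1 (46.5 points). The widest negative differences were small, at -9.15 points for Phf1, -4.84 points for Cbx7 and -3.97 points for Kdm2b.

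**Figure D4:**
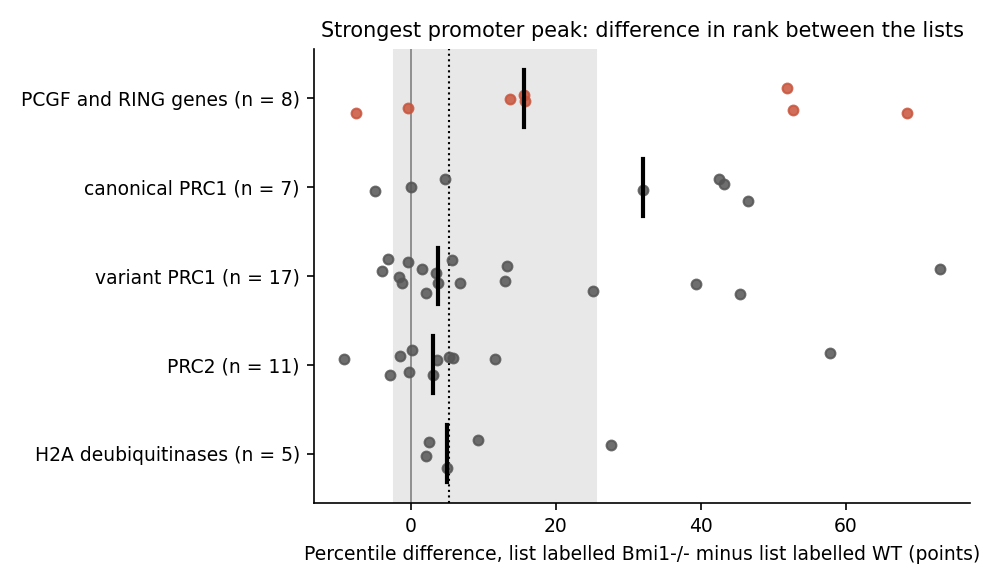
Difference in percentile of the strongest promoter peak (list labelled Bmi1-/- minus list labelled WT, in points) for genes with a promoter peak in both lists, with the 8 PCGF and RING genes in red, 4 groups of other Polycomb genes in grey and a black bar at each median. The shaded band spans the quartiles of all such genes (-2.27 to 25.6) and the dotted line is their median (5.29). Most points lie within the band, and 3 of the PCGF and RING genes lie to its right.

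The promoters of these genes are rich in CpG. Over the 9 windows the median GC content was 67.3% with 23 CpG and an observed to expected CpG ratio of 0.761, beside 52.7%, 7 and 0.384 over all 32851 windows. The 6331 windows with a peak in both lists had medians of 65.3%, 26 and 0.835, so this trait is shared by open promoters at large. The SP/KLF motif GGGCGG was found on either strand in 7 of 9 windows, in 6 of the 7 genes, and in 35.7% of all windows. The Bmi1 window held 7 motif matches, overlapping ones included, of which 1 was the E-box CACGTG that was also found in the Pcgf2 window and in 7.15% of all windows. CCAAT was found in the 5′ window of Pcgf5 (37.4% of all windows) and the E2F motif GGCGGGAA in its internal window (2.19%). CCGGAAG (ETS), CGCATGCG (NRF1 core), TGACGTCA (CRE) and AAGATGGC (YY1) were found in 0 of the 9 windows, beside 8.86%, 1.87%, 1.79% and 2.75% of all windows.

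The median CpG content was higher in the peaks that recurred, though the ranges overlapped. Of the recurring peaks, 10 of 13 labelled WT and 11 of 14 labelled Bmi1-/- were promoter peaks. CpG content and promoter position therefore cannot be told apart here. In the 300 bases around the summit, the 13 recurring peaks labelled WT had a median of 28 CpG (range 1 to 48) and the other 12 a median of 4 (0 to 22). In the list labelled Bmi1-/- the medians were 18 CpG (1 to 50) for 14 recurring peaks and 6 (0 to 47) for 18 others. Over the regions of all protein-coding genes the medians were 15 and 4 in both lists, the same direction. Among the exceptions, the Bmi1-/- peak upstream of Bmi1 (47 CpG) and that at the Ring1 TSS (30 CpG) were rich in CpG but had no partner in the list labelled WT.

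**Figure D5:**
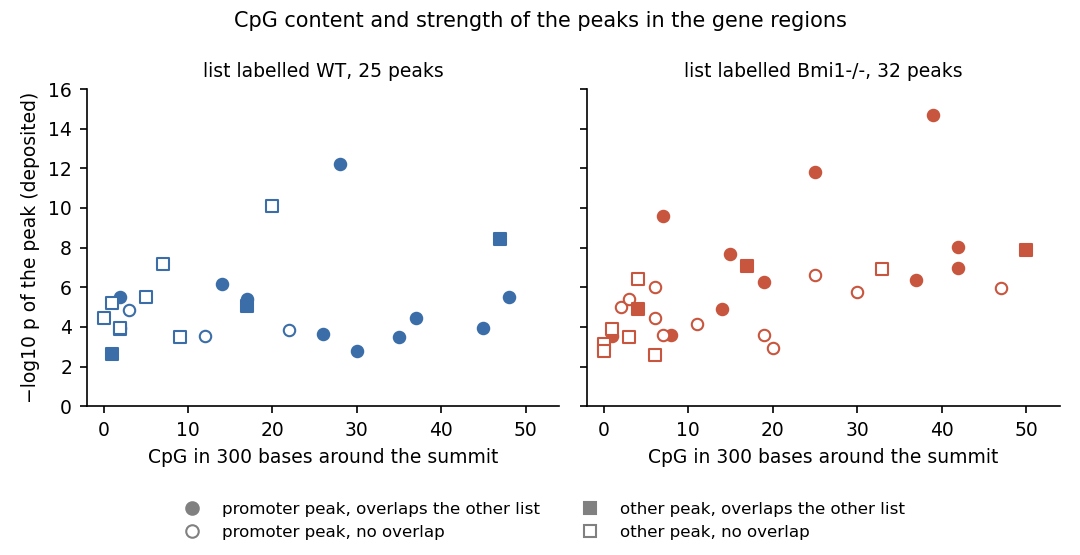
Number of CpG in the 300 bases around each peak summit against the deposited −log10 p of the peak, for the 25 peaks labelled WT (left) and the 32 peaks labelled Bmi1-/- (right). Circles are promoter peaks and squares other peaks, filled where they overlap the other list. Open points lie mostly at low CpG, with exceptions in both panels, and the strongest peak in each panel is that of the Rnf2 promoter.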

How the data were processed

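ATAC-seq libraries of WT and Bmi1-/- OC were grouped by genotype in GEO's labels. The authors aligned the reads by BWA-MEM, and MACS2 peaks were made for each library on its own (build mm10 in the submitters' processing notes, versions and options not given in the sources used here). Fold enrichment, as deposited, is a ratio of summit pileup to local background, with a pseudocount of 1 added to each. The deposited −log10 p and −log10 q come from MACS2, and peaks reach down to a −log10 p of about 2. The deposited score and strand columns were not used.

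Only chromosomes 1 to 19, X and Y were used, which left out 230 and 237 peaks. Pileup and background were solved from fold enrichment and −log10 p, and for 100% of peaks a whole pileup returned the deposited −log10 p within 0.01. Percentiles rank −log10 p within a list. Pileup ratios carry exact conditional intervals. TSSs came from GENCODE vM21, promoter sequences from RefSeq (7 genes matched). Python 3.11.15, numpy 2.4.6, pandas 2.3.3, scipy 1.17.1, pysam 0.24.0, matplotlib 3.10.9 and bedtools 2.31.1 were used, and the scripts were tested on simulated data. Named genes were the 8 members, neighbours starting within 3 kb of their promoter peaks, other Polycomb genes with a peak in 1 list or the 3 widest differences in each direction, and markers with no peak, of which 1 is not reported here. Tlx2 was named after its values were seen. Members and lists were chosen with earlier results of these data known. Read totals of the libraries were not analysed here.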

Additional observations from a re-analysis of the deposited data

How the results depend on the processing

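Of 103 recomputed values, 87 stayed within 1.5 times (counts), 10 points (percentile differences) or the counting interval (shares and ratios). Within that interval 4 pileup ratios of strongest promoter peaks crossed 1, against the local background Ring1 (1.14 to 0.795), Pcgf2 (1.22 to 0.992) and Rnf2 (1.01 to 0.964), and scaled by shared promoter peaks Rnf2 (0.961). With a −log10 q of at least 1.3, peaks labelled WT fell to 14 and genes with a WT promoter peak to 5. With at least 5, peaks numbered 2 labelled WT and 3 labelled Bmi1-/-, genes with a promoter peak 1 and 3, and 100% of those 3 peaks labelled Bmi1-/- overlapped the other list. A reciprocal overlap of 50% gave 24% and 18.8% shared peaks. For these shares and for the promoter counts at the q thresholds no all-gene counterpart is given. Promoters of 1 kb raised the median percentile difference to 51.9 (7 genes) and turned Pcgf2 to -17.8. Ring1 dropped out of that median for lack of a WT promoter peak, and no all-gene median is given for 1 kb. Keeping only peaks nearest to the member's own TSS, chosen after seeing the data, also gave -17.8 for Pcgf2 and left 5 of 8 genes higher in the list labelled Bmi1-/-. For these changes the cause was not tested, apart from the Pcgf2 peak at Psmb3 that both settings drop. Of the remaining single-gene values, 4 moved by over 10 points with the same sign: Pcgf1 to 79.7 and Ring1 to -39.2 by fold enrichment, Pcgf3 to 92.5 with 1 kb promoters, and Pcgf6 to 41.8 among peaks near a TSS. No paired analysis was possible because each genotype has 1 library, and for the same reason no replicate could be left out. Depth limits single peaks, since summits held 14 to 48 reads.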
